A study of Drosophila melanogaster with 6 samples.

Results

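The genes described here encode structural proteins of the insect cuticle whose symbols begin with Twdl, Ccp84, Acp65, Pcp or Edg, or with Lcp followed by a digit. They were taken from the array by symbol alone, and only probe sets that name a single gene were kept. This gave 40 probe sets for 39 genes, out of 18769 probe sets and 11982 genes in all. RefSeq lists 52 protein-coding genes with such symbols, of which 4 were read only by probe sets shared between near copies and 9 were not analysed here. RNA came from whole stage 11 embryos, from 3 collections of fkh[6] mutants and 3 collections of wild type Oregon R, with 1 Affymetrix array for each collection. Both groups were grown at the same temperature and went through an embryo sorter before RNA extraction, and the label gives Oregon R as the strain of the mutants too. Fork head (Fkh) is the single FoxA transcription factor of the fly and is made in the salivary glands, gut primordia, Malpighian tubules and some neuroblasts. Each array averages all tissues of the embryo, so a change in the number of cells that make a transcript cannot be told apart from a change in the amount per cell.

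The fly cuticle is a layered extracellular matrix of chitin fibres and proteins that epidermis, trachea, foregut and hindgut secrete at their outer face late in embryogenesis, well after stage 11. Tweedle proteins are a family found in insects that share a conserved domain and are laid down in the larval cuticle, and dominant alleles of TwdlD and of Tb, another family member, make the larva short and wide. Most Lcp, Ccp84A, Acp and Edg proteins instead carry the Rebers and Riddiford motif, which binds chitin. Larval (Lcp), adult (Acp), pupal (Pcp) and ecdysone-dependent (Edg) cuticle genes are named for the stage or hormone at which they were found, and many sit side by side in tandem clusters.

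Of the 40 probe sets, 16 were higher in fkh mutants and none was lower. A change counted as a rise or fall if it exceeded 1.4-fold and its p from limma, a linear model that pools the spread of all probe sets, stayed under 0.05 after Benjamini-Hochberg adjustment across the array. Over the whole array 6.19% of probe sets were called higher and 6.13% lower by the same rule. Falls were rarer, at 0.54%, among 1-gene probe sets with wild type signal below the array median, where 28 of the 40 members lay. The lack of falls among the members thus says little. At an unadjusted p, 18 of the 40 passed as higher, against 7.83% of all probe sets, and none as lower. None was lower under any other setting tried either. The rises were also large: 12 of the 40 rose by over 4-fold, against 1.44% of all probe sets. Among the 5738 probe sets of 1 gene with wild type signal below the array median, 167 did so. The median log2 fold change of the 40 was 0.36 and that of all probe sets was -0.08, and the members ranged from -0.15 to 5.21. In 19 of the 40 probe sets every fkh array lay above every wild type array, and in none did every fkh array lie below. Over the whole array these shares were 13.5% above and 25.1% below. A test that takes the spread of each probe set alone called 10 of the 40 higher, against 2.16% of all probe sets.

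**Figure D1:**
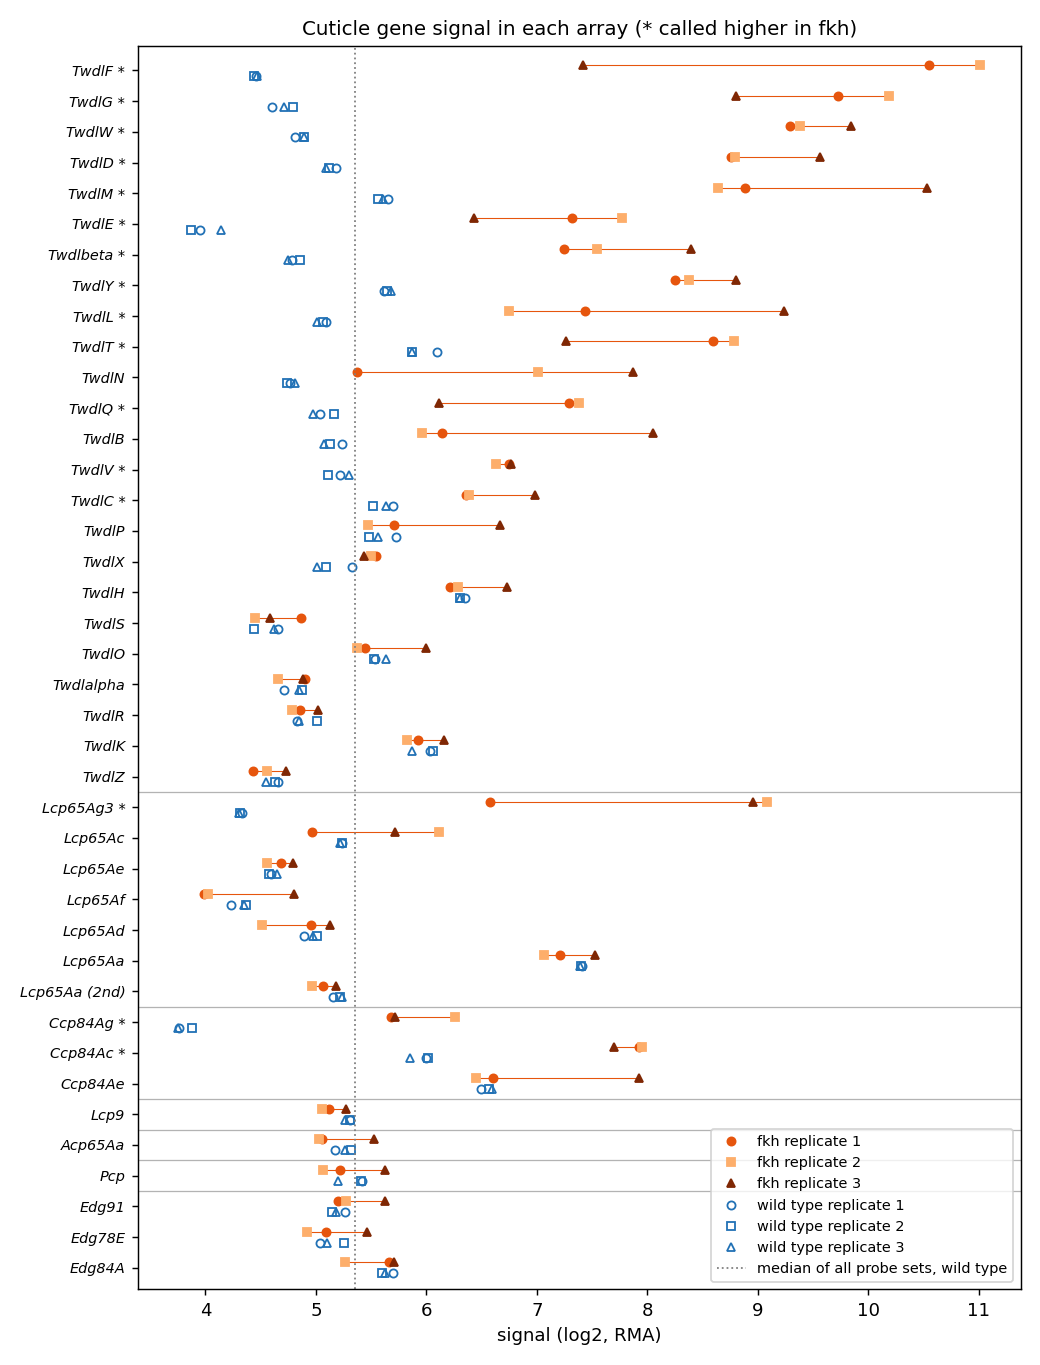
Signal of each of the 40 probe sets (rows, grouped by family and marked with an asterisk where called higher) in 3 fkh arrays (filled symbols, joined by a line) and 3 wild type arrays (open symbols), on the log2 scale, with the median of all probe sets in wild type, 5.36, as a dotted line. The wild type symbols of a row lie close together, and 16 rows have fkh symbols shifted to the right.

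The wild type signal of these genes was mostly low. It was below the median of all probe sets (5.36, log2) in 28 of the 40, as it was in 5738 of the 13647 probe sets of 1 gene. The median SD was 0.31 among fkh arrays, with a highest value of 1.95, and 0.06 among wild type arrays, with a highest value of 0.16. Over all probe sets the median SD was 0.15 in fkh and 0.08 in wild type. The size of a fold change over such low wild type signal depends on the array's background, and no detection call was used. All the folds below carry that limit. Among all 1-gene probe sets below the same median, 9.08% were called higher and 0.54% lower. In 991 of these 5738 every fkh array lay above every wild type array, and in 926 every fkh array lay below.

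Tweedle genes held most of the rises. Of 24 Tweedle genes, 13 were higher, 10 of them by over 4-fold, and 11 were not called, with a median log2 fold change of 1.72. Of the other 16 probe sets, 3 were higher, with a median of -0.01. Whether the families differ was not tested.

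TwdlF had the largest change. Its signal was 10.55, 11.01 and 7.42 in fkh replicates 1, 2 and 3, against 4.46, 4.44 and 4.46 in wild type replicates 1, 2 and 3 (log2). Replicates 1 and 2 of the mutant stood far above wild type and replicate 3 less far. The log2 fold change was 5.21 (standard error 0.86, adjusted p = 0.0081 from limma), which is 36.9-fold, and it was 80.3-fold without fkh replicate 3 and 23.1-fold without fkh replicate 2. TwdlG, its direct neighbour on chromosome arm 3R, was at 9.73, 10.19 and 8.80 in fkh and at 4.61, 4.80 and 4.71 in wild type (log2 fold change 4.87 with standard error 0.32, adjusted p = 2.6e-04). Both genes were lowest of the mutant arrays in replicate 3, and neither overlapped wild type. TwdlV, the last gene of this small group, was at 6.74, 6.63 and 6.77 in fkh and at 5.22, 5.11 and 5.30 in wild type, a 2.84-fold rise with little spread (adjusted p = 1.3e-04). CG14644, which lies between TwdlG and TwdlV and is no Tweedle gene, had a log2 fold change of -0.48, just short of the fold minimum (adjusted p = 0.0059), and it passed as lower without fkh replicate 2, fkh replicate 3, wild type replicate 1 or wild type replicate 2.

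TwdlW, which has no Tweedle neighbour, had a large and even rise. It was at 9.29, 9.38 and 9.84 in fkh and at 4.81, 4.89 and 4.89 in wild type (24.9-fold, log2 fold change 4.64 with standard error 0.15, adjusted p = 2.2e-05). TwdlY, on the X chromosome, was at 8.25, 8.38 and 8.80 in fkh and at 5.62, 5.65 and 5.68 in wild type, which is 7.10-fold higher (adjusted p = 9.1e-05). In both genes the 3 mutant arrays spanned less than 1 log2 unit. TwdlE, on arm 2L, was at 7.32, 7.77 and 6.43 in fkh and at 3.95, 3.87 and 4.15 in wild type (9.11-fold, adjusted p = 0.0011). Twdlbeta, on arm 2R, was at 7.24, 7.54 and 8.39 in fkh and at 4.78, 4.86 and 4.75 in wild type (7.61-fold, adjusted p = 8.9e-04). Replicate 3 was the lowest mutant array for TwdlE and the highest for Twdlbeta. TwdlT was at 8.59, 8.78 and 7.26 in fkh and at 6.09, 5.87 and 5.87 in wild type (4.81-fold, adjusted p = 0.0081), so that all mutant arrays exceeded wild type but replicate 3 by less. TwdlC was at 6.36, 6.39 and 6.99 in fkh and at 5.70, 5.52 and 5.64 in wild type (1.94-fold, adjusted p = 0.012), a call lost without wild type replicate 2 or 3.

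The large Tweedle cluster on arm 3R, from TwdlM to TwdlQ, changed in part only. Of its 12 measured members, 4 were higher and 8 not called. TwdlD, whose dominant allele alters larval shape, was at 8.76, 8.79 and 9.56 in fkh and at 5.18, 5.12 and 5.10 in wild type (log2 fold change 3.90 with standard error 0.21, adjusted p = 1.2e-04), a 15.0-fold rise. TwdlM, the gene at the start of the cluster, was at 8.89, 8.64 and 10.53 in fkh and at 5.65, 5.56 and 5.60 in wild type. That is 13.4-fold (adjusted p = 0.0025), and 8.91-fold without fkh replicate 3, the highest array. TwdlL was at 7.43, 6.75 and 9.23 in fkh and at 5.09, 5.06 and 5.01 in wild type (6.73-fold, adjusted p = 0.018). It was 4.10-fold higher without fkh replicate 3, and its call was lost without any 1 of the wild type arrays. TwdlQ was at 7.29, 7.38 and 6.11 in fkh and at 5.04, 5.16 and 4.97 in wild type (3.66-fold, adjusted p = 0.0094).
A pair of genes in this cluster had large mean differences but missed the threshold, with a wide spread among the mutant arrays. TwdlN was at 5.37, 7.01 and 7.87 in fkh and at 4.77, 4.74 and 4.81 in wild type (log2 fold change 1.98 with standard error 0.56, adjusted p = 0.054). TwdlB was at 6.14, 5.96 and 8.05 in fkh and at 5.24, 5.13 and 5.08 in wild type (log2 fold change 1.57 with standard error 0.51, adjusted p = 0.084). In both, every mutant array lay above every wild type array. TwdlN passed without fkh replicate 1 (adjusted p = 0.0030), and TwdlB passed without fkh replicate 2 (adjusted p = 0.047) or replicate 3 (adjusted p = 0.0013), while its log2 fold change without replicate 3 was 0.90. TwdlB and TwdlL are adjacent genes of 1 family, and the probe set of TwdlL may read both, in which case their values would not be independent. TwdlP, between TwdlM and TwdlB, overlapped wild type (5.70, 5.47 and 6.67 in fkh, 5.73, 5.48 and 5.56 in wild type, adjusted p = 0.45).

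The other genes of the cluster differed little from wild type and were not called. TwdlO, TwdlK, TwdlH, TwdlR and TwdlS had log2 fold changes between -0.02 and 0.09, with standard errors of 0.09 to 0.16, and mutant arrays that overlapped wild type. The called genes stood toward the ends of the cluster, TwdlM and TwdlL at one side and TwdlD and TwdlQ at the other. This order depends on the threshold. TwdlN, which lies between TwdlL and TwdlD, was not called at a 3.94-fold difference, while TwdlQ was called at 3.66-fold. TwdlP and TwdlB, between TwdlM and TwdlL, were not called either. Tb, which encodes a Tweedle protein but has a symbol outside the rule, lies between TwdlD and TwdlQ. It was at 7.97, 8.16 and 7.95 in fkh and at 5.23, 5.32 and 5.19 in wild type (6.86-fold, log2 fold change 2.78 with standard error 0.09, adjusted p = 2.2e-05). Its neighbour beat-VII, which is no cuticle gene, did not pass (-0.18 on the log2 scale, adjusted p = 0.24).
On the X chromosome TwdlY was the only called gene of 4 measured Tweedle genes. TwdlX, just before it, was at 5.55, 5.50 and 5.44 in fkh and at 5.33, 5.09 and 5.01 in wild type. This difference of 0.35 on the log2 scale (1.275-fold) was under the fold minimum of 1.4, and it also missed on p (adjusted p = 0.055). TwdlZ and Twdlalpha, after it, had log2 fold changes of -0.03 and 0.0045, with standard errors of 0.09 and 0.10.

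**Figure D2:**
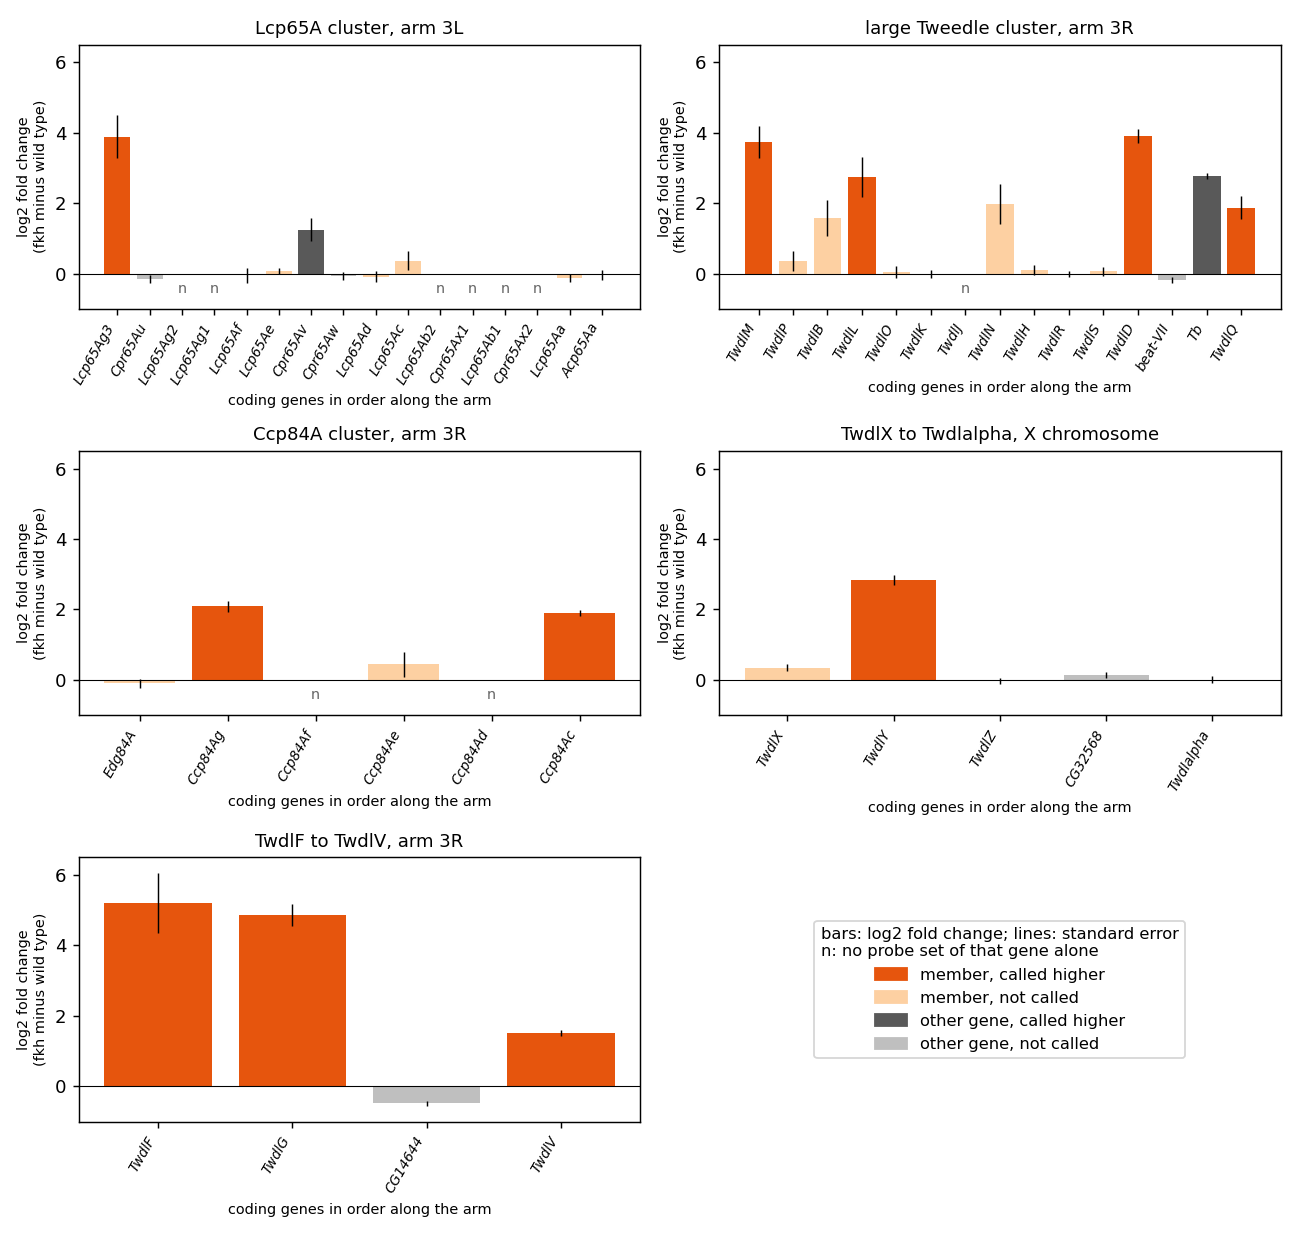
Log2 fold change (fkh minus wild type, vertical axis, with standard errors as lines on the bars) of coding genes in their order along the arm (horizontal axis) for the 5 clusters that hold members, with 3 arrays of each genotype. Called and uncalled genes stand side by side: 4 of 12 measured members were higher in the large Tweedle cluster and 1 of 4 on the X chromosome.

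The fkh gene lies on arm 3R as well, with 137 coding genes between it and TwdlT and 195 between it and TwdlM. Of 159 other measured genes from TwdlM to fkh, 10.7% were called higher and 8.18% lower, against 7.65% and 7.5% of all probe sets of 1 gene, with a median log2 fold change of -0.08. Called members also lie outside that region. TwdlF and TwdlG are at the far end of the same arm, with 2969 and 2968 coding genes between them and fkh. TwdlW, also on this arm, has 1368, and TwdlE, Twdlbeta and TwdlY are on other chromosomes. Whether position on the mutant chromosome played a part was not tested.

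In the Lcp65A cluster of larval cuticle genes on arm 3L, 1 of 7 probe sets was higher. Lcp65Ag3 was at 6.58, 9.09 and 8.95 in fkh and at 4.33, 4.31 and 4.30 in wild type (log2 fold change 3.89 with standard error 0.62, adjusted p = 0.0072). Replicate 1 was the lowest mutant array here, still more than 2 units above wild type, and the rise was 26.0-fold without it, against 14.8-fold with all arrays. A probe set shared by Lcp65Ag1 and Lcp65Ag2, which are near copies of Lcp65Ag3 in the same cluster, was at 7.48, 8.38 and 9.87 in fkh and at 5.35, 5.10 and 5.24 in wild type (10.1-fold, adjusted p = 0.0073, and 6.47-fold without fkh replicate 3). Signal can be split between such copies, so which of the 3 genes rose is uncertain.
The rest of the cluster was not called. Lcp65Ac was at 4.96, 6.11 and 5.72 in fkh and at 5.24, 5.23 and 5.22 in wild type (log2 fold change 0.37 with standard error 0.26, adjusted p = 0.39). It passed without fkh replicate 1, with a 1.61-fold rise. Lcp65Aa, Lcp65Ad, Lcp65Ae and Lcp65Af had log2 fold changes between -0.13 and 0.07, and both probe sets of Lcp65Aa gave -0.13. Among genes of the Cpr family interspersed here, Cpr65Av was 2.37-fold higher (adjusted p = 0.043, lost without fkh replicate 1 or any 1 of the wild type arrays), and Cpr65Au and Cpr65Aw were not called (adjusted p = 0.35 and 0.67). Acp65Aa, an adult cuticle gene at the end of the cluster, was at 5.06, 5.03 and 5.53 in fkh and at 5.17, 5.32 and 5.26 in wild type (adjusted p = 0.86).

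The Ccp84A cluster of cuticle genes on arm 3R rose in 2 of 3 measured members. Ccp84Ag was at 5.68, 6.26 and 5.71 in fkh and at 3.76, 3.88 and 3.75 in wild type (4.25-fold, log2 fold change 2.09 with standard error 0.16, adjusted p = 4.6e-04). Ccp84Ac was at 7.93, 7.95 and 7.69 in fkh and at 5.99, 6.02 and 5.85 in wild type (3.74-fold, log2 fold change 1.90 with standard error 0.10, adjusted p = 9.4e-05). The groups did not overlap in either gene, and SDs in fkh were 0.33 for Ccp84Ag and 0.14 for Ccp84Ac. Ccp84Ae, between them, was at 6.60, 6.45 and 7.93 in fkh and at 6.49, 6.57 and 6.60 in wild type, so that replicate 3 stood well above wild type and the other mutant arrays within or close to its range (adjusted p = 0.46). A probe set shared by Ccp84Aa and Ccp84Ab did not pass (0.32 on the log2 scale, adjusted p = 0.23).

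No gene of the pupal, adult or ecdysone-dependent groups was called. Edg78E, Edg84A, Edg91, Pcp, Acp65Aa and Lcp9, a larval cuticle gene outside the clusters, had log2 fold changes between -0.15 and 0.17, and in each the mutant and wild type arrays overlapped. Edg91 was at 5.20, 5.28 and 5.63 in fkh and at 5.26, 5.15 and 5.18 in wild type (adjusted p = 0.39). Lcp9 was at 5.12, 5.06 and 5.27 in fkh and at 5.31, 5.31 and 5.26 in wild type (adjusted p = 0.28). Pcp was at 5.22, 5.06 and 5.62 in fkh and at 5.42, 5.41 and 5.20 in wild type (adjusted p = 0.88). Wild type signal was below the array median in 5 of these 6 genes. Edg84A lies beside Ccp84Ag, which rose, and differed by -0.10 on the log2 scale (standard error 0.13).

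**Figure D3:**
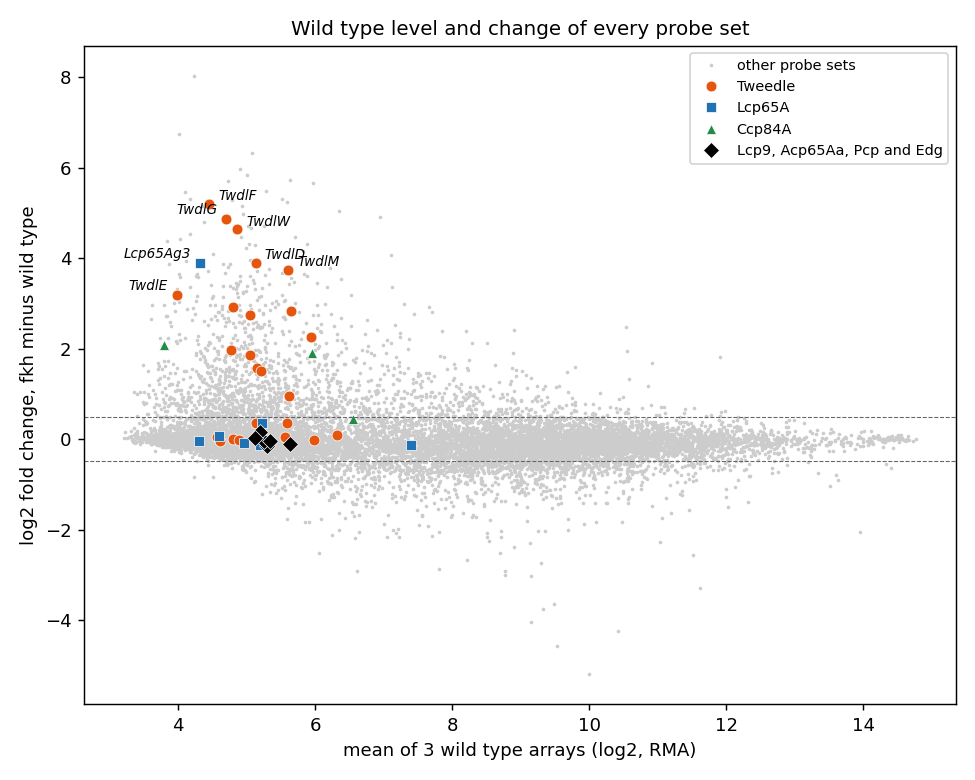
Log2 fold change (fkh minus wild type, vertical axis) against the mean of 3 wild type arrays (log2, horizontal axis) for all 18769 probe sets (grey) and the 40 cuticle probe sets (coloured by family). Dashed lines mark a fold change of 1.4. Of the 40, 28 lie left of the median wild type signal of 5.36, and 16 were called higher and none lower.

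The mutant collections differed from one another, and not in the same direction for all cuticle genes. Among the 16 called members, fkh replicate 3 was the highest mutant array in 8 and the lowest in 6. Its difference from the mean of the other mutant arrays was -3.36 log2 units in TwdlF, -1.43 in TwdlT, -1.23 in TwdlQ, -1.16 in TwdlG and -1.11 in TwdlE. The difference was 2.14 in TwdlL, 1.77 in TwdlM and 0.79 in TwdlD. Within the large Tweedle cluster it was the highest mutant array in 10 of 12 genes, and over all 40 members in 28 and the lowest in 7. Over the whole array it was highest in 49.7% and lowest in 28.3% of probe sets. Among the 5738 probe sets of 1 gene with wild type signal below the median, it was highest in 3362 and lowest in 1283. Of all arrays it also had the highest median, 5.45 (log2). The split of the members by replicate 3 was seen in the values and was not tested. Relative to the wild type mean, 15, 16 and 20 of the 40 members were over 2-fold higher in fkh replicates 1, 2 and 3.

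**Figure D4:**
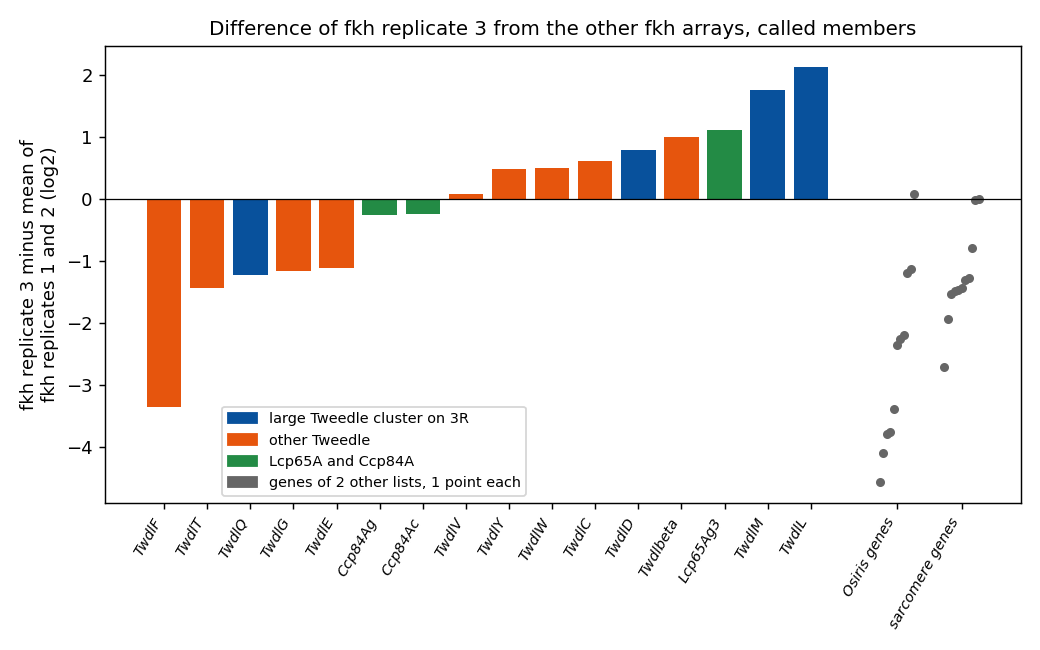
Signal in fkh replicate 3 minus the mean of fkh replicates 1 and 2 (log2, vertical axis) for the 16 called members as bars coloured by cluster or family, with genes of the Osiris and sarcomere lists as points. The bars run from -3.36 in TwdlF to 2.14 in TwdlL, while replicate 3 was the lowest mutant array in 10 of 11 Osiris and 9 of 11 sarcomere genes.

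Many but not all other listed genes of cuticle formation rose beside these proteins. Of 27 measured genes for chitin synthesis, chitin modification, apical matrix and tanning and for the epidermal transcription factors grh and ovo, 17 were higher and none lower, with a median log2 fold change of 1.87. Those not called were Cda5, dyl, neo, mey, pio, Ddc, ple, y, grh and ovo, and not all of them were flat. The log2 fold changes were -0.16 in pio, 0.09 in ple, 0.12 in grh and -0.21 in ovo. In dyl the signal was 8.97, 9.47 and 4.79 in fkh and 3.87 in each wild type array (14.7-fold, adjusted p = 0.059). Cda5, dyl, neo and mey passed as higher without fkh replicate 3. Ddc was 1.43-fold higher (adjusted p = 0.097), and y, at 1.33-fold (adjusted p = 0.033), missed only the fold minimum. The largest rises were in Gasp and obst-A, which encode chitin-binding proteins of the matrix (log2 fold changes 5.32 and 4.43), in serp, a chitin deacetylase (4.32), and in the chitinase gene Cht7 (3.88). Here fkh replicate 3 was the lowest mutant array in 20 of these 27 genes and the highest in 6.
Other gene lists were counted by the same rule. Among Osiris genes, a tandem family of cuticle-forming epithelia, 7 of 11 were higher. Of those not called, Osi3 was flat (1.01-fold), while Osi7, Osi9 and Osi14 were 4.15-fold, 15.4-fold and 11.3-fold higher (adjusted p = 0.055, 0.061 and 0.063). The latter genes passed without fkh replicate 3. The summed linear signal of the Osiris genes was 19520, 24661 and 2501 in fkh replicates 1, 2 and 3, against 399 to 408 in wild type. Among sarcomere genes 10 of 11 were higher, with a summed signal of 6925 to 16313 in fkh and 2649 to 2785 in wild type. Among neuronal genes 6 of 9 were higher, with 3623 to 4477 in fkh and 2049 to 2373 in wild type. In both lists the wild type sum rests largely on the brightest gene, which was not called. Act87E, of the sarcomere list, was at 11.13, 11.15 and 11.12 in wild type (log2) and 1.20-fold higher in fkh. For elav, of the neuronal list, these values were 10.58, 10.78 and 10.62, and 1.41-fold. The sums thus do not describe the called genes alone. No list gene is at 0 on this scale. Of 5 tracheal and 8 maternal genes none was called, and their summed signals in the groups overlapped (3125 to 4091 in fkh and 3614 to 3955 in wild type for tracheal genes, 3079 to 5073 and 3440 to 3544 for maternal genes). The tracheal genes measured were btl, vvl, kni, peb and uif, and this list does not cover other transcripts of the trachea. Among 8 measured genes of a segmentation list, all were above the array median in wild type, and 1 was lower in fkh, hh, by 1.55-fold. The part of embryo age or tissue composition in the cuticle values was not tested. The fkh transcript, which the mutation need not remove, was at 10.83, 10.62 and 10.64 in fkh and at 10.23, 10.11 and 10.28 in wild type (log2 fold change 0.49, adjusted p = 0.012), a call lost without fkh replicate 1, wild type replicate 1 or wild type replicate 2.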

How the data were processed

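Whole stage 11 embryos were measured on Affymetrix Drosophila Genome 2.0 arrays, 3 for fkh and 3 for wild type. The deposited values are log2 signals. The authors ran RMA in Partek, which subtracts background, equalizes the distributions of the arrays and condenses probes to probe sets, with versions not given in the sources used here. All 18769 probe sets were kept, and array medians were 5.36 to 5.45. Probe sets were named from the platform annotation, brought to current symbols by gene ID with RefSeq (13544 of 13647 probe sets of 1 gene matched), whose assembly GCF_000001215.4 was used only for gene order. A gene outside the members was represented by its brightest probe set. The test was lmFit and eBayes of limma 3.58.1 (R 4.3.3) on genotype alone, with p adjusted over all probe sets. The number of arrays limits precision, and p-values measure only the spread between these collections.

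The members and lists were chosen with earlier results of these data known. Every member could be named. Values in every array were given for each member called with a fold change over 4 and for the largest change in each family. Values in every array for other members, and the split by fkh replicate 3, were chosen after they were seen. On data simulated from the spread of the arrays (10 runs, 18769 probe sets, 200 changed), the fit found 95.6% of rises of 2 and 80.8% of rises of 1 on the log2 scale. The simulation gave both groups the same spread, whereas the members mostly spread more in fkh than in wild type. It also changed fewer probe sets than were called in the data. These rates need not hold for the members. The replicate numbers share no batch in the labels, and arrays of 1 number did not deviate together (correlations of 0.072, 0.073 and -0.079). Alternatives were array weights, a variance trend, scaling by 47 ribosomal protein probe sets, cyclic loess, removal of the dimmest probe sets, a replicate block, leaving out each array, fold minimums of 2 and none, unadjusted p, an equal-variance test and 1 probe set per gene. No sequence was used here. Tables were made with Python 3.11.15 and pandas 2.3.3.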

Additional observations from a re-analysis of the deposited data

How the results depend on the processing

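The count of 16 members higher in fkh was 14 to 18 over the 17 alternatives, other than the equal-variance test, which pools no spread and gave 10, and none was lower under any. Over the probe sets tested, 6.19% were higher as reported, 2.16% in the equal-variance test and between 3.56% (without wild type replicate 3) and 8.11% (without fkh replicate 3) under the others. The count of members was 14 to 18 when 1 array was left out in turn, and 17 without fkh replicate 3. Of the 16 called members, 10 kept the call under every alternative. TwdlL lost it without any 1 of the wild type arrays and TwdlC without wild type replicate 2 or 3 and at a fold minimum of 2, and both, with TwdlF, TwdlT, TwdlQ and Lcp65Ag3, lost it in the equal-variance test. The median log2 fold change of the members was 0.18 with array weights and 0.20 to 0.56 when 1 array was left out.

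With the replicate number as a block, 17 members were higher, TwdlN being added (log2 fold change 1.98), and no other call of a named member changed. Small differences that were not called changed sign under some settings, and the cause was not tested. Acp65Aa became 0.0401 after cyclic loess and ran between -0.2091 and 0.0418 when 1 array was left out, above 0 without fkh replicate 1 or 2. Pcp became 0.0039 with ribosomal protein scaling and 0.0479 with cyclic loess, and ran between -0.2009 and 0.0796 when 1 array was left out, above 0 without fkh replicate 2. Lcp65Ac became -0.0118 with array weights. TwdlP ran between -0.0023 and 0.5962 and Ccp84Ae between -0.0255 and 0.7138, each lowest without fkh replicate 3.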
